A study of Mus musculus with 72 samples.

Results

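The genes described here are Myc, the D cyclins Ccnd1, Ccnd2 and Ccnd3, and the cyclin-dependent kinase (CDK) inhibitors Cdkn1a, Cdkn1b, Cdkn1c, Cdkn2a, Cdkn2b and Cdkn2c. They are 10 of the 50600 genes in the deposited count table and were picked by symbol. Their mRNA was counted in 72 libraries from 6 mouse melanoma cell lines. Each line was kept in medium with 0.5% fetal calf serum for 18 h and was then given 1 of 4 treatments for 4 h, in 3 replicates. The treatments were mock (0.1% DMSO), 10 nM gastrin-releasing peptide (GRP), the ligand of the receptor GRPR, 1 µM RC-3095 (RC), a GRPR antagonist, and GRP with RC (GRP+RC). The labels do not say whether replicates were separate cultures, so the p-values measure the spread between these libraries only.

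The lines came from melanomas of transgenic mice, so each line stands for its tumour of origin. Lines 1057 and 1064 were from females and carried Tyr::NRASQ61K/°, Cdkn2a-/-, Tyr::CreA/° and Cdh1dF/dF, and both were labelled as positive for GRPR. The lines named 1181 were from a male with Tyr::NRASQ61K/° and Cdkn2a-/- and had no Cre (°/°), and their label gives the alleles Cdh1dF/dF. The paper writes mice without Cre as Cdh1F/F and counts 1181 as Ecad-positive, so the label is in conflict with it. The Cdh1 mRNA levels given below were higher in the 1181 lines than in 1057 and 1064. The lines named 1014 were from a female with Tyr::NRASQ61K/°, and their label names no Cdkn2a allele. Line 1181-Grpr and line 1014-Grpr had been transfected with CMV::Grpr/tGFP, and 1181-Ctrl and 1014-Ctrl with CMV::tGFP. All lines thus shared the Tyr::NRASQ61K/° transgene, which puts oncogenic NRAS under a promoter of the melanocyte lineage, and the plasmid lines shared the CMV promoter, which drives Grpr without the control of its own locus.

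D cyclins bind CDK4 and CDK6 and start the phosphorylation of RB, which opens the way from G1 into S phase. INK4 proteins (products of Cdkn2a, Cdkn2b and Cdkn2c) bind CDK4 and CDK6 and keep the D cyclins off, whereas the CIP/KIP proteins (products of Cdkn1a, Cdkn1b and Cdkn1c) bind whole cyclin-CDK complexes. MYC is a transcription factor that is induced early after mitogens reach quiescent cells, raises ribosome and nucleotide synthesis and represses several CDK inhibitors. Cdkn2a, which encodes p16INK4a and, in another reading frame, p19ARF, is a familial melanoma locus and restrains NRAS-driven melanocytes.

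Levels are CPM, that is counts scaled to a common library size with the trimmed mean of M values over all 72 libraries. Library totals ran from 19512882 to 46862053 counts, with a median of 28112904, and 3 counts were worth at most 0.154 CPM. All 10 genes were tested in 1057, and 9 in each other line, where Cdkn1c was under the filter on low counts. A gene is said to have passed, risen or fallen where its p, adjusted by the Benjamini-Hochberg method over all genes of that fit, was under 0.05 in the quasi-likelihood test of edgeR. The share of all genes that passed is given beside each first count as a background. At least 9 of 10 melanocyte markers had a mean above 1 CPM in every line, and 12 markers of immune, endothelial, epithelial and mural cells summed to at most 10.4 CPM in any library. Bulk RNA cannot tell fewer expressing cells from less RNA per cell. Cdh1 ran at 0 to 0.119 CPM in 1057 and 1064, 9.74 to 26.9 CPM in the 1181 lines and 0.688 to 5.12 CPM in the 1014 lines, leaving aside the 2 libraries described next.

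A pair of libraries went against their labels, and levels of the genes described here went with the conflict. The library labelled 1014-Ctrl mock 2 held 48.1 CPM of Grpr and 64.2 CPM of the Y-linked gene Ddx3y, although its line has no Grpr plasmid and is from a female. It also had 18.5 CPM of Cdkn2a and 323 CPM of Ccnd2, both below every other 1014-Ctrl library, and 22.7 CPM of Cdh1. The library labelled 1181-Grpr GRP+RC 2 held no Grpr or Ddx3y reads and had 793 CPM of Xist, the RNA of the inactive X chromosome. It also had 83.4 CPM of Cdkn2a and 817 CPM of Ccnd2, both above every other 1181-Grpr library, and 4.60 CPM of Cdh1. Both libraries were kept in the groups their labels give, and calls that changed without them are given beside the result.

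All other 1181-Grpr libraries, which are labelled male, held reads of the Y-linked genes and of Xist together. Ddx3y ran from 37.1 to 63.2 CPM and Xist from 193 to 248 CPM in these 11 libraries, whereas Xist was at most 0.640 CPM in 1181-Ctrl. Cdkn2a ran from 17.0 to 22.5 CPM in 1181-Grpr and from 1.29 to 2.24 CPM in 1181-Ctrl, so the lines did not overlap. Over all treatments, Grpr was also lowest in 1181-Grpr among the lines with the receptor, at 8.48 to 79.9 CPM. It ran from 187 to 275 CPM in 1057, 472 to 1283 CPM in 1064 and 107 to 620 CPM in 1014-Grpr. In 1181-Grpr the replicates had 17.7, 9.02 and 8.48 CPM under mock and 79.9, 19.1 and 39.5 CPM after GRP. In 1014-Grpr they had 126, 107 and 141 CPM under mock and 399, 569 and 620 CPM after GRP. In 1057 Grpr was lower after GRP, at 197 to 210 CPM against 273 to 275 CPM under mock. In 1064 it was also lower, at 472 to 519 CPM against 786 to 1283 CPM. Why the direction differed was not tested. Grpr was at most 0.0915 CPM in the control lines, the 2 doubted libraries left aside. The part of these label conflicts in the results was not tested.

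**Figure D1:**
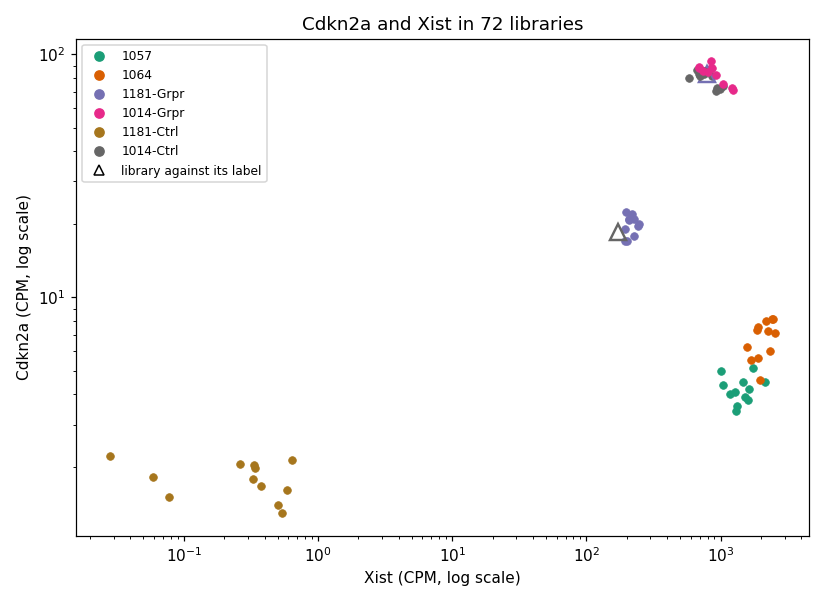
Level of Cdkn2a (y axis, CPM, log scale) against that of Xist (x axis, CPM, log scale) in each of the 72 libraries, coloured by line, with the 2 libraries that went against their labels as open triangles. The 1181-Grpr libraries sit at 17.0 to 22.5 CPM of Cdkn2a, between the 1014 lines above and 1057, 1064 and 1181-Ctrl below, and each triangle lies nearer to libraries of another line than to those of its own.

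The loci are given on GRCm38 with Ensembl identifiers. Myc (ENSMUSG00000022346) lies at chr15:61985391-61990374 on the plus strand. Of the D cyclins, Ccnd1 (ENSMUSG00000070348) lies at chr7:144929931-144939925 on the minus strand, Ccnd2 (ENSMUSG00000000184) at chr6:127125162-127152193 on the minus strand and Ccnd3 (ENSMUSG00000034165) at chr17:47505051-47599691 on the plus strand. Cdkn1a (ENSMUSG00000023067) lies at chr17:29090976-29100727 on the plus strand, Cdkn1b (ENSMUSG00000003031) at chr6:134920401-134925513 on the plus strand and Cdkn1c (ENSMUSG00000037664) at chr7:143458339-143461050 on the minus strand. The INK4 genes are all on the minus strand of chromosome 4, with Cdkn2a (ENSMUSG00000044303) at chr4:89274471-89294653, its neighbour Cdkn2b (ENSMUSG00000073802) at chr4:89306299-89311039 and Cdkn2c (ENSMUSG00000028551) at chr4:109660876-109667189. All 10 are protein-coding. Exons of genes on the other strand overlapped 30.7% of the exon bases of Cdkn1c, 23.4% of Ccnd1, 7.87% of Ccnd2, 7.68% of Cdkn1a and 4.11% of Ccnd3. The strand setting of the counting is not given in the sources used here, so reads from those stretches may come from either gene.

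RefSeq promoter windows (GRCm38.p6) were at hand for 6 of the 10 genes, namely Cdkn2a, Cdkn2b, Cdkn2c, Cdkn1b, Cdkn1a and Ccnd3. Those of Cdkn1a and Cdkn2b are shown because these inhibitors rose after GRP in line 1014-Grpr, each as the 250 bases before the start site, 5′ to 3′. Capitals mark, in Cdkn1a, matches to the 10-base unit of the p53 response element, and, in Cdkn2b, the cyclic AMP response element TGACGTCA.
Cdkn1a, chr17:29090729-29090978, plus strand: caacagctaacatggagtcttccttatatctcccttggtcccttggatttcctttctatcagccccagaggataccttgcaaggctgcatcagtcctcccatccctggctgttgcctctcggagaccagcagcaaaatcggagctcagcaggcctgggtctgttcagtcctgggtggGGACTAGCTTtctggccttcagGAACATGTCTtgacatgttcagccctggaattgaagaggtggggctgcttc
Cdkn2b, chr4:89311033-89311282, minus strand: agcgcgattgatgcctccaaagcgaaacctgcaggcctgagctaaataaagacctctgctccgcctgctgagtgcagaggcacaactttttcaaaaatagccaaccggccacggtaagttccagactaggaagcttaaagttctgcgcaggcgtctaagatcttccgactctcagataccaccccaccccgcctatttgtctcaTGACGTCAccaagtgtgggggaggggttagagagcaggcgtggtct
The p53 units in Cdkn1a began at -73 and -51 from the start site of the window shown, and 7.13% of 32851 mouse promoter windows of this length held such a unit on either strand. The window of a second Cdkn1a start, chr17:29093519-29093768, held no such unit. The element TGACGTCA in Cdkn2b began at -46 and was held by 1.55% of the windows, and it includes a match to its core TGACG on each strand, which 17.8% of the windows held. The GC box GGGCGG, in 32.7% of all windows, was in windows of Cdkn2a, Cdkn2c, Cdkn1b, Ccnd3 and a second start of Cdkn1a. The CCAAT box (33.9% of windows) was in Cdkn1b and Ccnd3, TGACG in both Ccnd3 windows, and GGAATG, the letters that TEAD factors bind (12.6%), in 1 of them. These are matches of letters on either strand and not sites shown to be bound. The E-box CACGTG, the sequence that MYC and its partner MAX bind, was in 6.02% of all windows and in none of those listed for the 6 genes, nor were TGANTCA (AP-1, 6.75%), GCGGGGGCG (EGR1, 2.57%), TATAAA (12.4%) or the CArG box of SRF (1.47%).

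Within each family the leading gene took different shares of the mRNA pool in different lines. On the authors' TPM, which are scaled for transcript length and library size and so allow levels of different genes to be compared, Ccnd1 made up most of the D cyclin mRNA in every line under mock, from 76.9% ± 1.32 (SD, n = 3) in 1014-Grpr to 95.7% ± 0.972 (n = 3) in 1181-Ctrl. Ccnd2 took 19.2% ± 0.920 in 1014-Grpr and 15.3% ± 0.910 in 1064 but 2.14% ± 0.672 in 1181-Ctrl. The summed D cyclin level under mock was highest in 1064, at 5284 ± 691 TPM, and lay at 2107 ± 256 TPM in 1014-Grpr.

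Cdkn1a was the main CIP/KIP transcript in all lines under mock. It took 81.1% ± 0.692 of the family's TPM in 1057, 81.5% ± 1.71 in 1064 and 62.8% ± 5.49 in 1014-Grpr (n = 3 each), with Cdkn1b as nearly all the rest. After GRP the share of Cdkn1a in 1014-Grpr was 90.8% ± 0.939, and the family sum went from 238 ± 24.7 to 743 ± 44.2 TPM. Cdkn1c, a maternally expressed imprinted gene, was low. It had no count in any of the 12 libraries of 1064 and was at or under 3 counts in all 12 libraries each of 1014-Grpr and 1181-Ctrl. It ran at 0.735 to 1.499 CPM in 1057 and reached 0.259 CPM in 1181-Grpr.

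The leading INK4 transcript was not the same in all lines. Cdkn2b was 94.3% ± 3.90 of the family's TPM in 1064 and 73.0% ± 0.857 in 1057. Cdkn2a was 49.3% ± 4.35 in 1014-Grpr and 45.7% ± 1.72 in 1014-Ctrl (n = 2, without the doubted library), the lines whose label names no Cdkn2a allele. It was 2.57% ± 0.857 in 1064, 4.61% ± 0.748 in 1057 and 5.95% ± 2.16 in 1181-Ctrl, which are labelled Cdkn2a-/-, but 32.8% ± 1.39 in 1181-Grpr, which carries the same label. Counts per gene do not show which exons of Cdkn2a the reads came from, so the remaining reads in the Cdkn2a-/- lines do not check the deletion exon by exon.

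**Figure D2:**
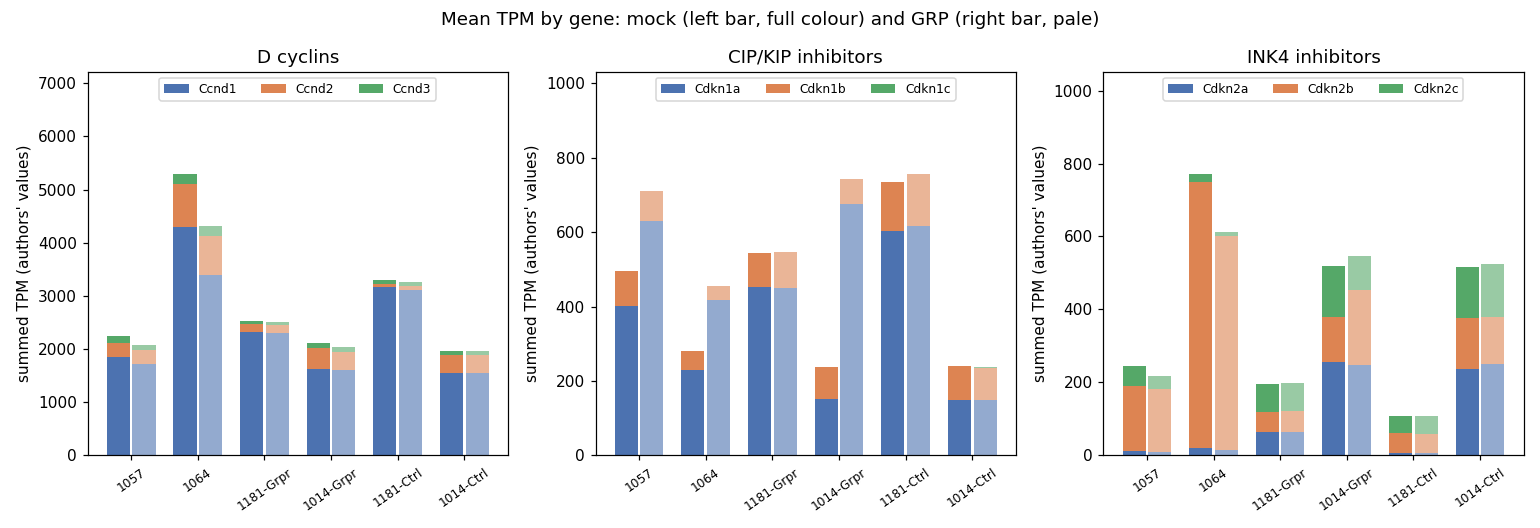
Mean summed TPM (y axis, authors' values) of the D cyclins, the CIP/KIP inhibitors and the INK4 inhibitors by line, stacked by gene, with mock on the left (full colour) and GRP on the right (pale) of each pair. Ccnd1 makes up most of every D cyclin bar, Cdkn2b fills the INK4 bar of 1064, and the CIP/KIP bar of 1014-Grpr goes from 238 to 743 TPM through Cdkn1a. The bars leave out the 2 libraries that went against their labels, which leaves n = 2 for 1014-Ctrl mock and n = 3 elsewhere.

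Under mock alone, with all 72 libraries in the fit, 98 tests of the 10 genes over the 15 pairs of lines passed. Between 1057 and the other lines, 9 genes passed against 1064 (54.5% of all genes did), 6 against 1181-Grpr (61.1%), 7 against 1014-Grpr (62%), 6 against 1181-Ctrl (64.2%) and 7 against 1014-Ctrl (59.8%). Line 1064 differed by 9 genes from 1181-Grpr (59.2%), 9 from 1014-Grpr (59%), 8 from 1181-Ctrl (62.2%) and 8 from 1014-Ctrl (57.3%). Across parents of the plasmid lines, 6 passed between 1181-Grpr and 1014-Grpr (37.7%), 5 between 1181-Grpr and 1014-Ctrl (11.8%), 8 between 1014-Grpr and 1181-Ctrl (55.5%) and 7 between 1181-Ctrl and 1014-Ctrl (42.7%). Without the 2 doubted libraries, 1 of which is a 1014-Ctrl mock library, the counts against 1014-Ctrl were 6 instead of 7 for 1057, 9 instead of 8 for 1064 and 6 instead of 5 for 1181-Grpr. The shares of all genes against 1014-Ctrl are given only with the doubted library in its mock group. That of 11.8% for 1181-Grpr is therefore no background for the count of 6.

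Myc was highest in 1057 at 226 ± 7.17 CPM, then in 1181-Ctrl at 160 ± 25.6 CPM, and the steps from 1057 to 1181-Ctrl (adjusted p = 0.0242, edgeR) and from 1181-Ctrl to 1064 (adjusted p = 0.00907) both passed. 1064 (107 ± 15.4 CPM) and 1181-Grpr (104 ± 20.3 CPM) did not differ beyond their spread (adjusted p = 0.885). The 1014 lines were lowest, and the step from 1181-Grpr to 1014-Ctrl (63.0 ± 18.3 CPM) passed (adjusted p = 0.0145), whereas the 1014 lines did not differ beyond their spread (adjusted p = 0.591). In the 1014-Grpr mock libraries Myc stood at 49.5, 56.6 and 52.1 CPM. In 1014-Ctrl it stood at 53.6, 84.2 and 51.3 CPM, the middle value being the doubted library. Myc passed in 13 of the 15 pairs.

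Ccnd1 and Ccnd2 were both highest in 1064. Ccnd1 was at 6619 ± 1057 CPM there against 3832 ± 912 CPM in 1181-Ctrl (adjusted p = 0.00348), and the order below, 1181-Ctrl, 1181-Grpr, 1057, 1014-Grpr and 1014-Ctrl, held no step between neighbours that passed. Ccnd2 was at 2490 ± 377 CPM in 1064, 1035 ± 54.9 CPM in 1014-Grpr and 827 ± 14.05 CPM in 1057, and the step from 1064 to 1014-Grpr passed (adjusted p = 3.03e-06). It was lowest in the 1181 lines, with 368 ± 50.6 CPM in 1181-Grpr against 166 ± 46.2 CPM in 1181-Ctrl (adjusted p = 1.02e-04). Ccnd3 was at 503 ± 216 CPM in 1064, where the libraries ranged from 284 to 715 CPM, and at 411 ± 11.8 CPM in 1057 (adjusted p = 0.181 between them). The step from 1057 to 1014-Grpr (194 ± 9.77 CPM) passed (adjusted p = 1.53e-06), and no step below it did.

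For Cdkn1a the order under mock was 1181-Ctrl (345 ± 74.8 CPM), 1057 (298 ± 11.3 CPM), 1181-Grpr (268 ± 57.0 CPM), 1064 (165 ± 13.4 CPM), 1014-Ctrl (133 ± 75.4 CPM) and 1014-Grpr (91.3 ± 17.9 CPM). Of these steps only that from 1181-Grpr to 1064 passed (adjusted p = 0.0313). Without the 2 doubted libraries 1014-Ctrl fell to 90.0 ± 21.4 CPM (n = 2), and the step from 1064 to 1014-Grpr then passed as well (adjusted p = 4.00e-04). Cdkn1b, the p27 gene, ran from 157 ± 53.2 CPM in 1181-Ctrl to 77.0 ± 12.8 CPM in 1064, and of the steps between neighbours only that from 1014-Grpr to 1064 passed (adjusted p = 0.0255).

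Cdkn2a was at 81.9 ± 9.13 CPM in 1014-Grpr and 56.6 ± 33.3 CPM in 1014-Ctrl, which did not differ beyond their spread (adjusted p = 0.383). It was at 20.1 ± 2.82 CPM in 1181-Grpr, 7.21 ± 0.872 CPM in 1064, 4.36 ± 0.558 CPM in 1057 and 1.88 ± 0.336 CPM in 1181-Ctrl, and each step from 1014-Ctrl down passed (adjusted p at most 0.0499), also without the 2 doubted libraries. In all, 14 of its 15 pairs passed. In 1181-Grpr it was 3.42 ± 0.347 (SE) higher than in 1181-Ctrl on the log2 scale (adjusted p = 2.13e-11). Cdkn2b was at 335 ± 98.5 CPM in 1064, 82.4 ± 4.16 CPM in 1057, 47.3 ± 12.3 CPM in 1014-Grpr, 43.0 ± 16.8 CPM in 1014-Ctrl and 20.2 ± 2.50 CPM in 1181-Grpr. The 1014 lines did not differ beyond their spread (adjusted p = 0.870), nor did the 1181 lines (adjusted p = 0.988), and the other steps passed. Cdkn2c, the p18 gene, ran from 102 ± 8.28 CPM in 1014-Grpr to 18.1 ± 12.1 CPM in 1064, with no step between neighbours passing.

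Between the lines that share a parent, 3 of 10 genes differed under mock in 1181-Grpr against 1181-Ctrl (15.7% of all genes tested passed). These were Cdkn2a, Ccnd2 (1.15 ± 0.224 on the log2 scale, adjusted p = 1.02e-04) and Myc (-0.62 ± 0.197, adjusted p = 0.0230). Without the 2 doubted libraries 4 passed (21% of all genes), with Cdkn1c added (adjusted p = 0.0366). That call rests on few reads, since Cdkn1c averaged 0.173 CPM in 1181-Grpr and 0.0254 CPM in 1181-Ctrl under mock. Over all treatments it was at or under 3 counts in 5 of 11 libraries of 1181-Grpr and in all 12 of 1181-Ctrl. In 1014-Grpr against 1014-Ctrl none of the 10 passed with edgeR (4.69% of all genes), 1 had an unadjusted p under 0.05 (Ccnd2) and none passed with DESeq2. The doubted 1014-Ctrl library is 1 of the 3 in this comparison, and none passed without the 2 doubted libraries either (0.562% of all genes).

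Replicates carrying the same number differed together in some lines. In 1064 the Cdkn2b level of replicate 1 was 213 to 224 CPM under all 4 treatments, while replicates 2 and 3 lay between 315 and 402 CPM. In 1181-Ctrl the Cdkn2c level of replicate 3 was 7.96 to 11.4 CPM, and replicates 1 and 2 lay between 36.2 and 49.5 CPM. For effects of treatment, fits that carry the replicate number as a block are therefore given beside several results below. The share of all genes that passed was not taken for fits with a block, so counts from them have no such background. Each line has its own replicates, so a block leaves no spread between replicates for comparing lines under mock and was not used there.

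**Figure D3:**
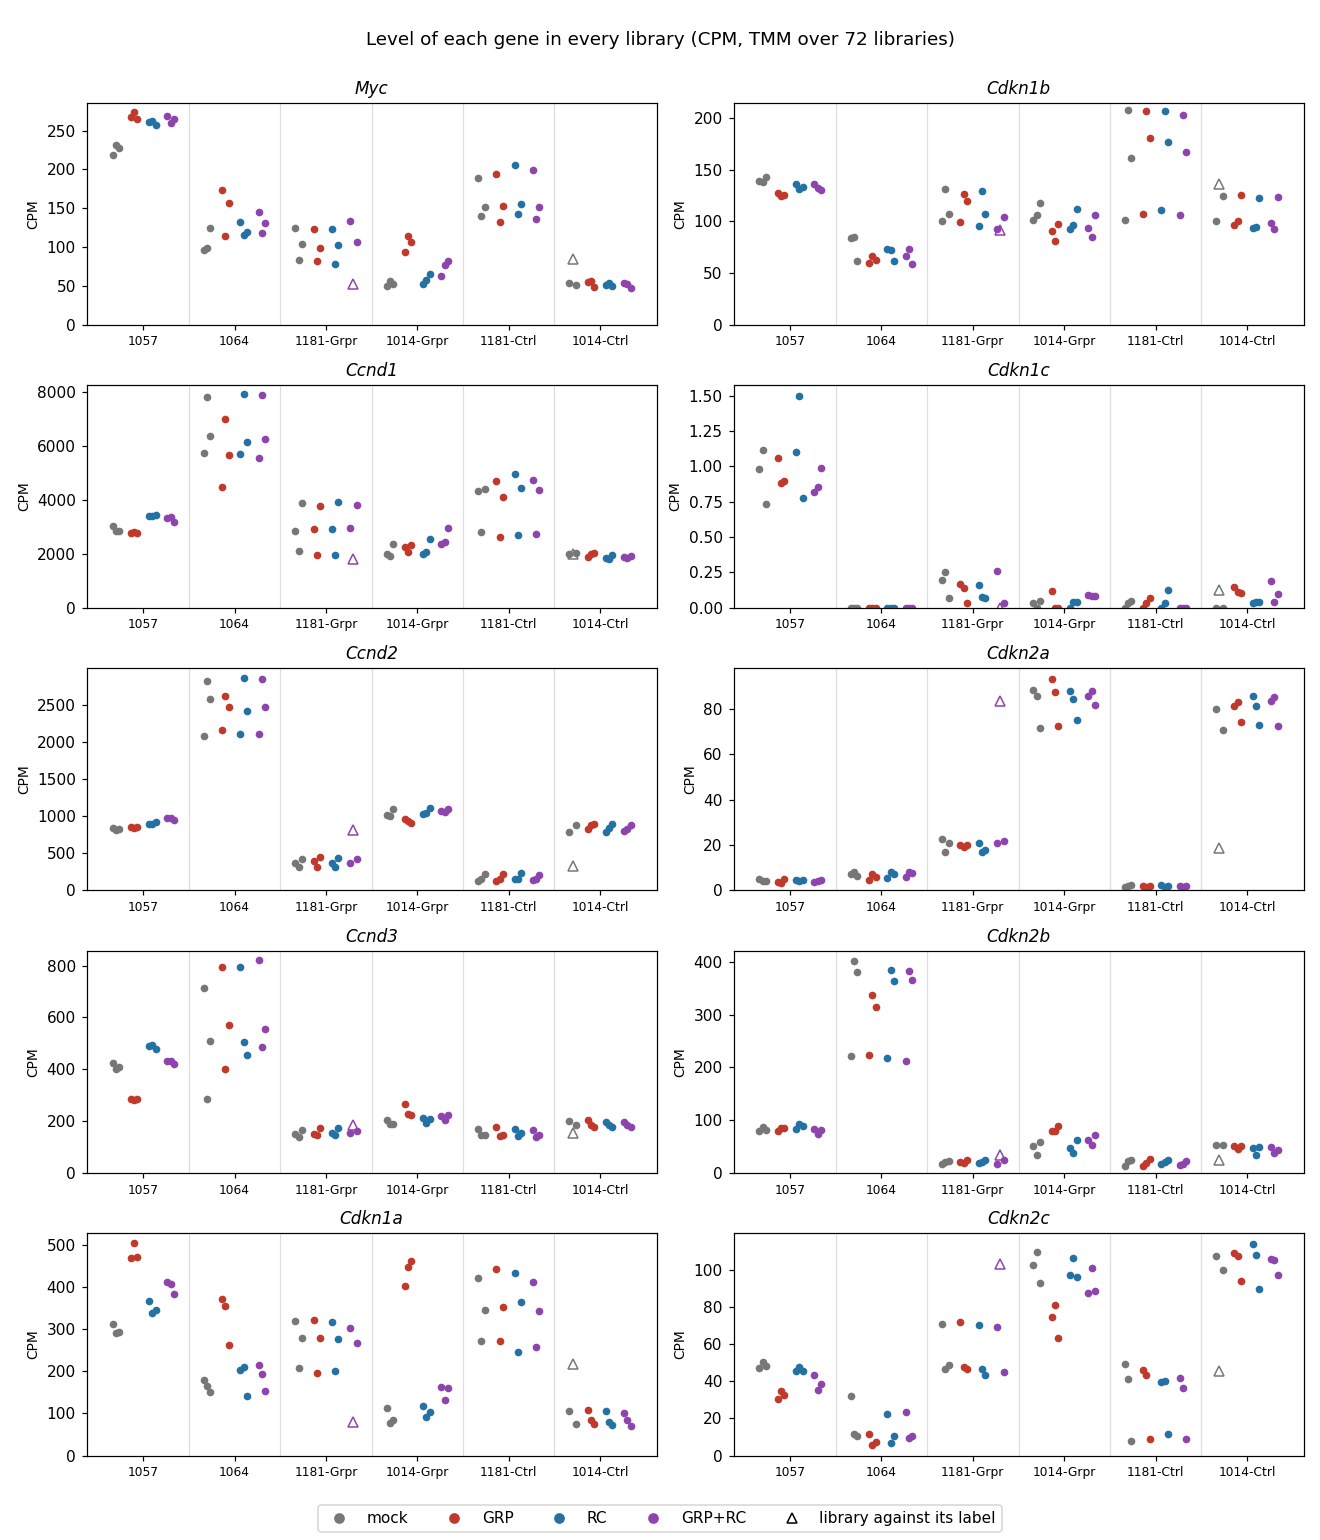
CPM (y axes) of each of the 10 genes in all 72 libraries, grouped by line (x axes) and coloured by treatment, with the 2 libraries that went against their labels as open triangles. Cdkn1a after GRP stands above mock in 1057, 1064 and 1014-Grpr, and Cdkn2a is high in the 1014 lines under every treatment.

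After GRP, Cdkn1a rose in 3 of the 4 lines with the receptor, and Myc in 2 of them. Among the D cyclins, Ccnd3 fell in 1057 and rose in 1014-Grpr, and Ccnd1 and Ccnd2 did not pass in any line with edgeR without a block. Cdkn2c fell in 1057 and 1014-Grpr, and Cdkn2b rose in 1014-Grpr. In 1057, 5 of 10 genes passed after GRP (2 higher, 3 lower), where 52.6% of all genes did (25.7% higher, 26.9% lower). In 1014-Grpr 5 of 9 passed (4 higher, 1 lower), where 29% of all genes did (16.3% higher, 12.7% lower), and in 1064 1 of 9, where 6.38% did. With a log2 fold change beyond 1 in either direction required as well, none remained in 1057 (6.46% of all genes) or 1064 (2.32%), and in 1014-Grpr 2 did (4.01%). The median log2 fold change of the genes tested was 0.09 in 1014-Grpr, beside -0.02 over all genes.

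**Figure D4:**
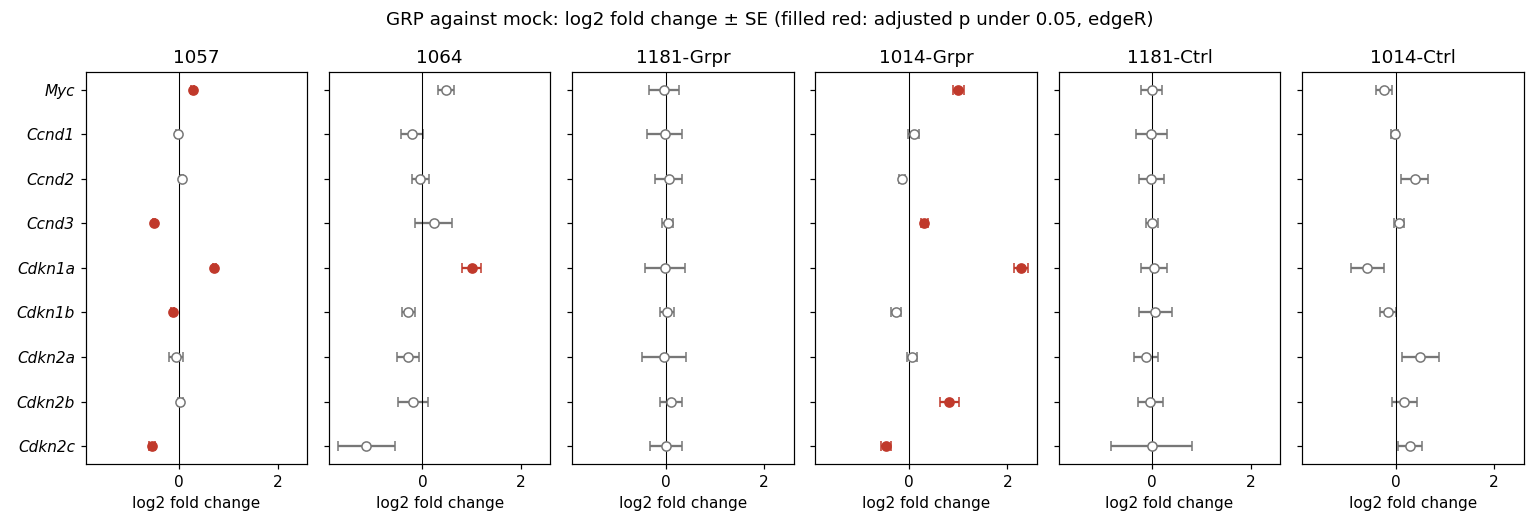
Log2 fold change of GRP against mock (x axes, points, with bars of ± 1 SE) for the 9 genes tested in every line (y axis), 1 panel per line, filled red where the adjusted p was under 0.05 in edgeR. Cdkn1a reaches 0.72 in 1057, 1.00 in 1064 and 2.27 in 1014-Grpr, and no point is filled in 1181-Grpr, 1181-Ctrl or 1014-Ctrl.

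Myc rose in 1014-Grpr and 1057. In 1014-Grpr its levels were 49.5, 56.6 and 52.1 CPM under mock and 93.4, 115 and 106 CPM after GRP, so the groups did not overlap, and the log2 fold change was 1.00 ± 0.113 (SE, adjusted p = 5.15e-05, edgeR). In 1057 it went from 218, 232 and 228 CPM to 267, 275 and 265 CPM, again without overlap (0.28 ± 0.031, adjusted p = 5.57e-07). In 1064 the mock libraries had 96.8, 99.2 and 125 CPM and the GRP libraries 174, 114 and 157 CPM, which overlap, and the difference of 0.48 did not pass (adjusted p = 0.100). It passed with DESeq2 and with the replicate block, which pairs in 1064 (0.46 ± 0.106 with the block, adjusted p = 0.00508). The difference in the response between 1057 and 1014-Grpr passed its own test (-0.74 ± 0.117 for 1057 minus 1014-Grpr, adjusted p = 7.79e-05), beside 15.1% of all genes. Between 1057 and 1064 none of the 10 genes passed that test in edgeR, where 1.3% of all genes did, and none had an unadjusted p under 0.05. With the block, whose numbers pair in 1064 but not in 1057, 3 passed, namely Ccnd3 (-0.78 ± 0.150 for 1057 minus 1064, adjusted p = 0.00138), Cdkn1a (-0.27 ± 0.082, adjusted p = 0.0279) and Ccnd1 (0.18 ± 0.056, adjusted p = 0.0330). DESeq2 was not run on the differences between receptor lines.

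Ccnd1, the D cyclin most tied to RAS-MAPK signalling, did not pass after GRP in any line with edgeR on counts without a block. In 1057 it stood at 3005, 2832 and 2827 CPM under mock and 2762, 2784 and 2775 CPM after GRP, a log2 fold change of -0.03 (adjusted p = 0.354). In 1064 all 3 replicates had less Ccnd1 after GRP than the mock library of the same number, with 5729, 7788 and 6340 CPM under mock and 4481, 6998 and 5654 CPM after GRP, and the replicate block passed (-0.22 ± 0.050, adjusted p = 0.00465). On the authors' TPM, the fall in 1057 also passed in limma (-0.11, adjusted p = 0.00107).

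Ccnd2 did not pass after GRP in any line with edgeR without a block, and its levels in 1014-Grpr (1008, 998 and 1098 CPM under mock, 956, 933 and 909 CPM after GRP) did not overlap. With the block it passed there (-0.13 ± 0.037, adjusted p = 0.00479), as it did with DESeq2 (adjusted p = 0.0474) and on TPM in limma (-0.24, adjusted p = 0.0119). In 1057 its rise of 0.07 passed with DESeq2 (adjusted p = 0.0270), whereas on TPM the difference was -0.02 (adjusted p = 0.527). Ccnd3 fell in 1057 from 424, 401 and 409 CPM to 285, 281 and 286 CPM (-0.51 ± 0.027, adjusted p = 1.57e-11). It rose in 1014-Grpr from 205, 187 and 190 CPM to 265, 228 and 222 CPM (0.31 ± 0.074, adjusted p = 0.00813), although this call was lost without replicate 1 (adjusted p = 0.0510), without replicate 2 (adjusted p = 0.0625) and on TPM (adjusted p = 0.0622). The effect in 1057 minus that in 1014-Grpr was -0.83 ± 0.082 (adjusted p = 1.55e-07). In 1064 Ccnd3 was spread from 284 to 715 CPM under mock and from 401 to 795 CPM after GRP and did not pass (adjusted p = 0.789).

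Cdkn1a, which encodes p21, had the largest log2 fold change upwards of the genes tested in 1057, 1064 and 1014-Grpr alike. In 1014-Grpr it went from 112, 77.9 and 84.3 CPM to 403, 448 and 460 CPM, a log2 fold change of 2.27 ± 0.143 (adjusted p = 1.02e-06). The groups did not overlap. In 1064 it went from 179, 165 and 152 CPM to 371, 355 and 263 CPM (1.00 ± 0.188, adjusted p = 0.0153), and the call was lost without replicate 1 (0.98, adjusted p = 0.152) or without replicate 2 (0.95, adjusted p = 0.220). With the replicate block it was 0.98 ± 0.070 (adjusted p = 3.68e-05). In 1057 it rose from 311, 291 and 292 CPM to 469, 505 and 470 CPM (0.72 ± 0.037, adjusted p = 1.22e-11). The effect in 1057 minus that in 1014-Grpr was -1.57 ± 0.150 (adjusted p = 1.01e-07), and that in 1064 minus that in 1014-Grpr was -1.23 ± 0.245 (adjusted p = 0.0379, 0.247% of all genes passing).

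Cdkn1b fell slightly in 1057, from 139, 138 and 143 CPM to 128, 125 and 126 CPM (-0.13 ± 0.030, adjusted p = 0.00148), a call lost without replicate 3 (adjusted p = 0.0685). In 1014-Grpr it had 102, 106 and 118 CPM under mock and 90.9, 81.0 and 97.5 CPM after GRP (adjusted p = 0.0696) and passed with the block (-0.27 ± 0.045, adjusted p = 5.51e-05), with no filter on low counts (adjusted p = 0.0355), without replicate 3 (adjusted p = 0.0361) and on TPM (adjusted p = 0.0262), but not with DESeq2 (adjusted p = 0.0602). In 1064 it passed with the block (-0.27 ± 0.082, adjusted p = 0.0203) but not with DESeq2 (adjusted p = 0.281) or on TPM (adjusted p = 0.151). Cdkn1c was tested in 1057 only and did not pass (adjusted p = 0.933).

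Among the INK4 genes, Cdkn2c fell in 1057 from 47.4, 50.6 and 48.0 CPM to 30.6, 34.8 and 32.7 CPM (-0.55 ± 0.062, adjusted p = 5.39e-07). In 1014-Grpr it fell from 103, 110 and 93.1 CPM to 74.5, 80.9 and 63.5 CPM (-0.47 ± 0.097, adjusted p = 0.00341), and neither line's groups overlapped. In 1064 it had 32.0, 11.9 and 10.4 CPM under mock and 11.6, 5.58 and 7.53 CPM after GRP, lower in each replicate but not passing (adjusted p = 0.282), and it passed with the block (-1.04 ± 0.172, adjusted p = 8.67e-04). Without replicate 1 the call in 1014-Grpr was lost for Cdkn2c (adjusted p = 0.0725) and Cdkn2b (adjusted p = 0.0966).

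Cdkn2b, the TGF-β-responsive p15 gene, rose in 1014-Grpr from 50.1, 33.8 and 57.9 CPM to 79.1, 79.6 and 88.9 CPM (0.82 ± 0.199, adjusted p = 0.00851). In 1057, where the mock level was higher, it stayed within 78.8 to 87.0 CPM in both groups (0.03, adjusted p = 0.697), and the effects in 1057 and 1014-Grpr differed (-0.81 ± 0.216, adjusted p = 0.0110). In 1064 it passed with the block in the other direction (-0.17 ± 0.057, adjusted p = 0.0356). The difference between 1064 and 1014-Grpr passed with the block for Cdkn2b (-0.98 ± 0.121, adjusted p = 3.55e-05), Myc, Ccnd1, Cdkn1a and Cdkn2c. Cdkn2a did not pass after GRP in any line, with 88.5, 85.7 and 71.5 CPM under mock and 93.5, 87.7 and 72.6 CPM after GRP in 1014-Grpr.

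In 1181-Grpr none of the 9 genes tested passed after GRP with edgeR, and 0% of all genes did. None had an unadjusted p under 0.05 and none passed with DESeq2. Cdkn1a had 319, 207 and 278 CPM under mock and 322, 196 and 279 CPM after GRP, and the groups overlapped. Its log2 fold change was -0.01 with a 95% interval of -0.90 to 0.88, and that of Myc was -0.03 with an interval of -0.71 to 0.64. With the replicate block and without the doubted library the intervals were -0.06 to 0.03 for Cdkn1a and -0.10 to 0.03 for Myc. The effect on Cdkn1a minus that in 1014-Grpr was -2.27 ± 0.452 (adjusted p = 0.00682, beside 3.55% of all genes, or 6.92% without the doubted libraries). Without those libraries Cdkn1a was at -2.28 ± 0.275 (adjusted p = 4.25e-05) and Myc passed as well (-1.03 ± 0.243, adjusted p = 0.0127). With the block Myc (-1.02 ± 0.167, adjusted p = 5.71e-04) and Cdkn2b (-0.73 ± 0.228, adjusted p = 0.0402) passed beside Cdkn1a. The effect on Ccnd3 in 1057 minus that in 1181-Grpr was -0.57 ± 0.112 (adjusted p = 0.00242, beside 8.28%, or 14% without them). Without the doubted libraries Ccnd3 was at -0.54 ± 0.096 (adjusted p = 5.40e-04), and Cdkn1a passed too (0.74 ± 0.230, adjusted p = 0.0361). Between 1181-Grpr and 1064 no difference passed for these 9 genes in edgeR without the block (1 had an unadjusted p under 0.05, Cdkn1a, and 0.352% of all genes passed, or 1.06% without the doubted libraries), and with it Cdkn1a did (adjusted p = 0.0180). Grpr itself was higher after GRP than under mock in each replicate of 1181-Grpr, as given above. The low Grpr level, the Xist and Y-linked reads and the higher Cdkn2a of this line went with the lack of calls. Their part in that lack was not tested.

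No gene passed in the control lines either. In 1181-Ctrl and 1014-Ctrl none of 9 genes passed with edgeR or DESeq2, none had an unadjusted p under 0.05, and 0% of all genes passed in each. Cdkn1a had 420, 271 and 345 CPM under mock and 443, 272 and 353 CPM after GRP in 1181-Ctrl (0.03, 95% interval -0.56 to 0.63, and -0.05 to 0.11 with the block). In 1014-Ctrl it had 105, 218 and 74.9 CPM under mock, where 218 CPM was the doubted library, and 109, 84.8 and 73.9 CPM after GRP. The log2 fold change there was -0.57 with that library and -0.01 (95% interval -0.48 to 0.47) without it.

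The design asks whether the response needs the receptor, which lines with and without the Grpr plasmid address. For the 1014 lines the GRP effect was larger with the Grpr plasmid for 2 of 9 genes, where 13.6% of all genes passed. They were Cdkn1a (2.84 ± 0.388, adjusted p = 5.62e-05) and Myc (1.24 ± 0.206, adjusted p = 4.55e-04). Without the doubted libraries 5 passed (16.8% of all genes), with Cdkn1a at 2.29 ± 0.267, Myc at 0.98 ± 0.148, Cdkn2b at 0.94 ± 0.272, Ccnd3 at 0.35 ± 0.109 and Cdkn2c at -0.47 ± 0.145, and the replicate block added Cdkn1b and Ccnd2 for 7. With all libraries and the block 3 passed. For the 1181 lines none of 9 passed with edgeR or DESeq2, none had an unadjusted p under 0.05, and 0% of all genes passed. Their difference for Cdkn1a was -0.05 with a 95% interval of -1.11 to 1.00.

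Averaged over the 4 lines with the receptor in a fit of all 72 libraries, Cdkn1a rose by 0.98 ± 0.143 on the log2 scale (adjusted p = 2.90e-07) and Myc by 0.42 ± 0.098 (adjusted p = 8.33e-04), 2 of 10 genes, beside 25.9% of all genes (28.9% without the doubted libraries). Of all genes 2.28% passed with a log2 fold change beyond 1 as well, and none of the 10 did. Over the 3 lines other than 1181-Grpr, an average chosen after seeing the data, the values were 1.32 ± 0.139 for Cdkn1a, 0.57 ± 0.089 for Myc and -0.73 ± 0.289 for Cdkn2c (adjusted p = 0.0496), beside 31.6% of all genes. Over the 2 control lines none of 10 passed (1.09% of all genes, and 0% without the doubted libraries), none had an unadjusted p under 0.05 and none passed with DESeq2. The difference between the average of the receptor lines and that of the control lines was 1.25 ± 0.246 for Cdkn1a (adjusted p = 4.58e-04) and 0.54 ± 0.171 for Myc (adjusted p = 0.0354), beside 8.81% of all genes. Without the doubted libraries (8.02% of all genes) that of Cdkn1a was 0.97 ± 0.186 and passed (adjusted p = 3.10e-04), and that of Myc was 0.41 and did not (adjusted p = 0.0635).

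Cdkn1a was lower after GRP+RC than after GRP alone in 1057 and 1014-Grpr. In 1014-Grpr Cdkn1a was at 163, 132 and 160 CPM after GRP+RC against 403, 448 and 460 CPM after GRP alone (-1.54 ± 0.140, adjusted p = 4.52e-05), and Myc was at 62.6, 77.5 and 81.6 CPM against 93.4, 115 and 106 CPM (-0.52 ± 0.112, adjusted p = 0.0102). Cdkn2c was higher with RC added (0.32, adjusted p = 0.0498), a call lost without any 1 of the replicates (adjusted p = 0.0974 to 0.225). The call for Myc was lost without replicate 2 (-0.48, adjusted p = 0.131). In all, 3 of 9 genes passed beside 11.8% of all genes. With the replicate block 7 passed, a fit to which that share does not belong. Cdkn1a alone also had a log2 fold change beyond 1, beside 1.73% of all genes.

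In 1057 Cdkn1a under GRP+RC stayed above mock. It was at 412, 406 and 382 CPM after GRP+RC, between mock and GRP without overlapping either (-0.29 against GRP, adjusted p = 1.25e-05, and 0.43 against mock, adjusted p = 2.92e-08). Ccnd3 was at 434, 431 and 422 CPM, above GRP (0.57, adjusted p = 7.34e-11) and 0.06 from mock on the log2 scale, which did not pass (adjusted p = 0.0582). Myc at 269, 260 and 265 CPM did not differ from GRP alone (-0.04, adjusted p = 0.339). Ccnd1, Ccnd2 and Cdkn2c were also higher with RC added, so 5 of 10 genes passed (4 higher, 1 lower), beside 24.7% of all genes (11% higher, 13.7% lower), none of them with a log2 fold change beyond 1 (1.02% of all genes). The call for Cdkn2c was lost without replicate 1 (0.12, adjusted p = 0.207) and without replicate 3 (0.25, adjusted p = 0.0772). RC alone raised Myc, Cdkn1a, Ccnd1, Ccnd2 and Ccnd3 over mock in 1057, as given below. For Ccnd1, Ccnd2 and Ccnd3, which were higher in both comparisons, GRP+RC against GRP cannot tell a block of GRP from an effect of RC itself. Cdkn1a was higher after RC alone but lower with RC added to GRP. Myc was higher after RC alone and did not differ with RC added to GRP. How the effect of RC itself and that on GRP combine in these genes was not tested.

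In 1064 no gene of 9 passed for GRP+RC against GRP with edgeR, where 0.029% of all genes did, 1 had an unadjusted p under 0.05, and 1 passed with DESeq2 (Cdkn1a). Cdkn1a stood at 214, 193 and 153 CPM after GRP+RC against 371, 355 and 263 CPM after GRP, without overlap. With the block 3 passed, Cdkn1a (-0.83 ± 0.069, adjusted p = 3.59e-04), Cdkn2c (0.76, adjusted p = 0.0128) and Ccnd1 (0.19, adjusted p = 0.0215). In 1181-Grpr none of 9 passed (0% of all genes), 1 had an unadjusted p under 0.05 and none passed with DESeq2, with or without the doubted library of the GRP+RC group. That gene was Cdkn2a, at 20.9, 83.4 and 22.0 CPM after GRP+RC, where 83.4 CPM was the doubted library. Averaged over the 4 receptor lines, Cdkn1a was lower with RC added by -0.73 ± 0.142 (adjusted p = 3.87e-04), the only gene of 10 to pass in that fit, beside 6.88% of all genes. It was -0.63 without the doubted libraries, where 7.69% of all genes passed.

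GRP+RC was also set against mock in each line. There, 5 of 10 genes passed in 1057, where 44.3% of all genes did (21.3% higher, 22.9% lower, and 3.47% with a log2 fold change beyond 1), with Cdkn1a, Myc (0.23), Ccnd2 (0.23) and Ccnd1 (0.19) higher and Cdkn2c lower (-0.31). In 1014-Grpr 1 of 9 passed, Cdkn1a at 0.73 (adjusted p = 0.0306), where 0.947% of all genes did without a block. With the block 7 passed. No gene of 9 passed in 1064, 1181-Grpr, 1181-Ctrl or 1014-Ctrl with edgeR or DESeq2, where 0% of all genes did, and only Cdkn2a in 1181-Grpr had an unadjusted p under 0.05. Without the doubted libraries none passed in 1181-Grpr or 1014-Ctrl either.

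After RC alone, genes passed in 1057. They were 5 of 10, all higher than under mock, where 24.3% of all genes passed, 13% were higher and 0.888% had a log2 fold change beyond 1. Ccnd3 rose from 424, 401 and 409 CPM to 490, 493 and 480 CPM (0.24, adjusted p = 2.89e-06), opposite to its fall after GRP. Ccnd1 rose from 3005, 2832 and 2827 CPM to 3401, 3405 and 3446 CPM (0.24, adjusted p = 6.66e-06). Cdkn1a (0.22, adjusted p = 2.31e-04), Myc (0.20, adjusted p = 1.25e-04) and Ccnd2 (0.12, adjusted p = 0.00260) rose as well. In the other 5 lines none of 9 genes passed with edgeR or DESeq2, none had an unadjusted p under 0.05, and 0% of all genes passed. None passed in 1014-Ctrl without its doubted mock library either. Whether the effect of RC differed between 1057 and the other lines was not tested.

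**Figure D5:**
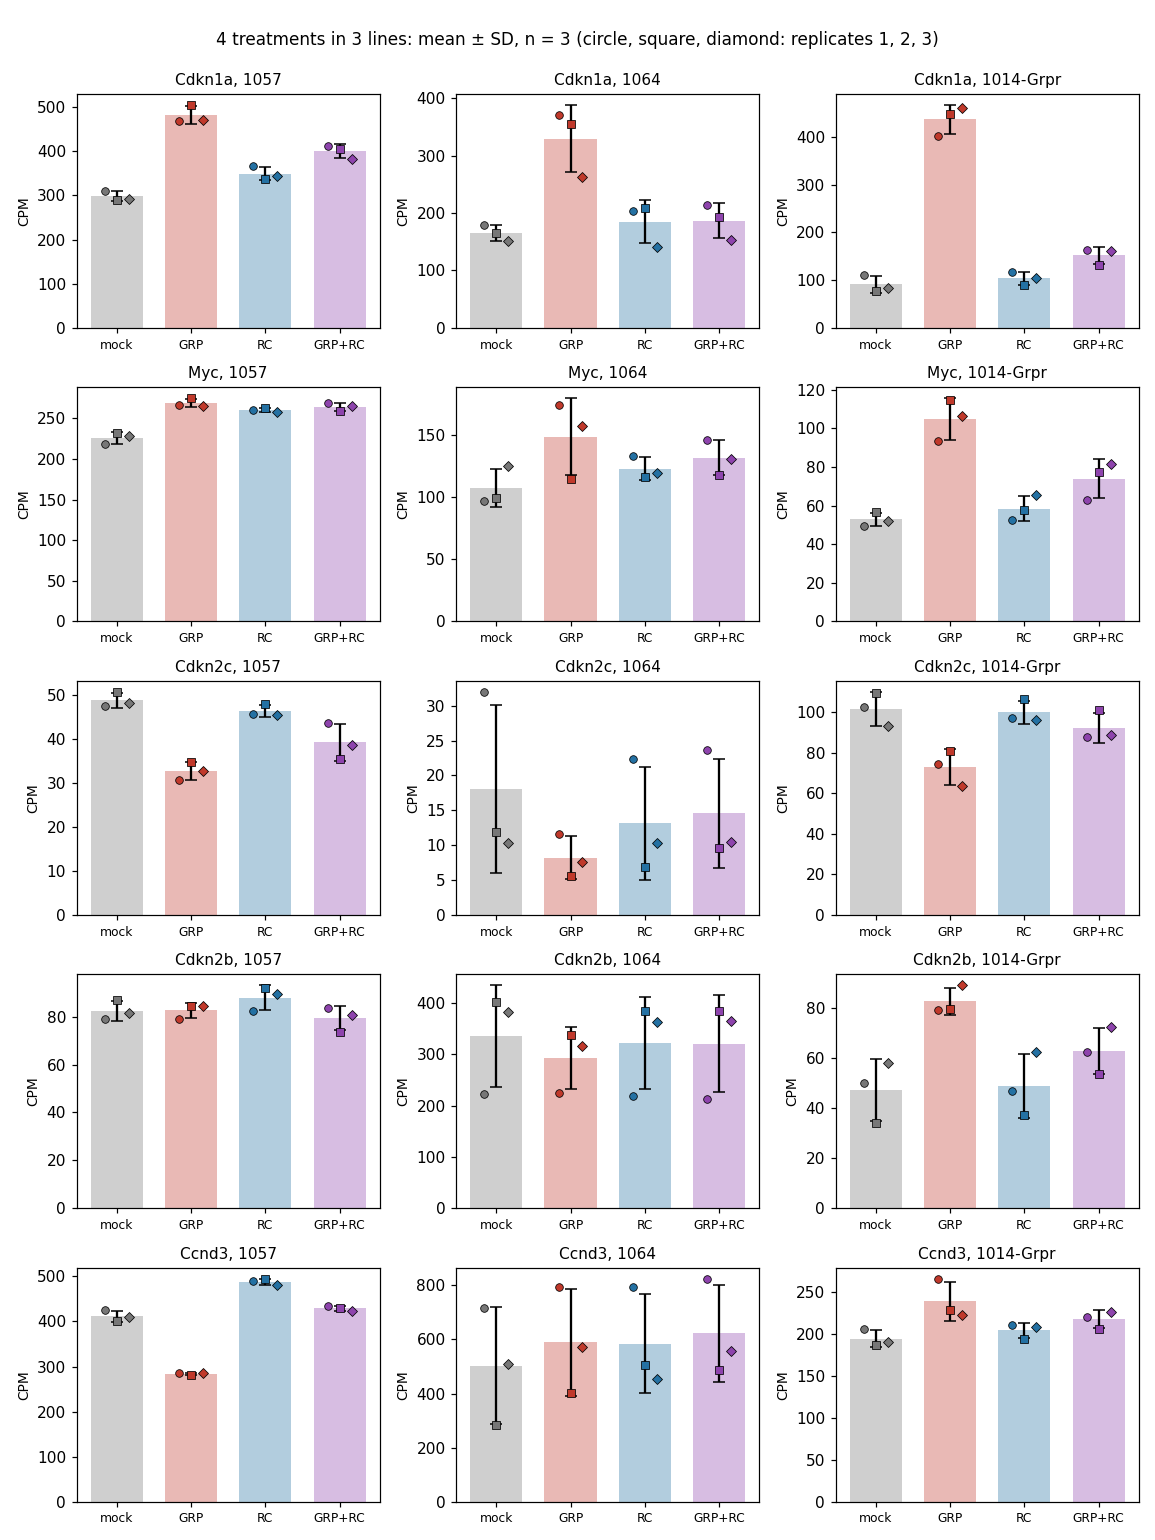
CPM (y axes) of Cdkn1a, Myc, Cdkn2c, Cdkn2b and Ccnd3 under the 4 treatments (x axes) in 1057, 1064 and 1014-Grpr, with bars for the mean, error bars for the SD (n = 3) and symbols for the replicates. Cdkn1a under GRP+RC lies at 132 to 163 CPM in 1014-Grpr and at 382 to 412 CPM in 1057, between mock and GRP in both lines. Cdkn2b in 1064 is lowest in replicate 1 under every treatment.

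Of 20 genes that MYC is known to activate, 16 were higher and none lower after GRP in 1014-Grpr, where 16.3% of all genes were higher and 12.7% lower, with a median log2 fold change of 0.57 beside -0.02 over all genes. In 1057 the list had 14 that rose and 2 that fell (median 0.24 beside -0.01), where 25.7% of all genes rose and 26.9% fell. In 1064 1 rose (median 0.23), where 6.38% of all genes passed in either direction. Odc1, the rate-limiting enzyme of polyamine synthesis, rose in 1057 from 491 ± 41.4 to 2384 ± 36.9 CPM (2.31 ± 0.043, adjusted p = 1.54e-17), in 1064 by 0.94 (adjusted p = 0.0311) and in 1014-Grpr by 0.85 (adjusted p = 1.17e-04). Ppan, a ribosome assembly factor, rose in 1014-Grpr from 39.4 ± 4.40 to 78.3 ± 2.71 CPM and in 1057 from 52.75 ± 1.10 to 67.6 ± 2.95 CPM. In the MYC network of dimer partners and antagonists, 10 of 13 genes passed in 1057 (6 higher, 4 lower), beside 52.6% of all genes, and 6 in 1014-Grpr (2 higher, 4 lower), beside 29%. Mxd4, another MAX partner that opposes MYC, fell in 1057 from 191 ± 6.26 to 107 ± 4.14 CPM and in 1014-Grpr from 175 ± 13.02 to 117 ± 7.57 CPM.

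Of 20 genes of S phase and mitosis, 16 fell and none rose after GRP in 1057 (median -0.34), where 26.9% of all genes fell, and 11 fell and none rose in 1014-Grpr (median -0.41), where 12.7% of all genes fell. In 1064 none passed in edgeR, where 6.38% of all genes did, and the median was -0.875 beside -0.02 over all genes. Mcm7, part of the replicative helicase, fell from 105 ± 2.75 to 63.6 ± 4.61 CPM in 1057 and from 103 ± 12.2 to 71.4 ± 4.23 CPM in 1014-Grpr. In 1064 it was at 39.2 ± 28.3 CPM under mock and 18.1 ± 14.2 CPM after GRP. With RC added to GRP, 13 of the 20 were higher than after GRP alone in 1057, where 11% of all genes were, and 6 in 1014-Grpr, where 11.8% of all genes passed in either direction. None was lower in either line.

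The wider G1 machinery, 23 genes around CDK4, RB and E2F, had 12 that fell and 5 that rose in 1057, where 26.9% of all genes fell and 25.7% rose. In 1064 2 fell and none rose, where 6.38% of all genes passed. In 1014-Grpr 7 fell and 2 rose, where 12.7% of all genes fell and 16.3% rose. Rbl2, the RB relative p130 of resting cells, fell from 88.0 ± 1.23 to 47.4 ± 1.72 CPM in 1057 (-0.87, adjusted p = 5.83e-12) and from 76.7 ± 8.88 to 55.2 ± 2.44 CPM in 1014-Grpr (-0.46, adjusted p = 0.00408). E2f4, its E2F partner, rose by 0.42 in 1057 (adjusted p = 3.62e-07) and by 0.47 in 1014-Grpr (adjusted p = 4.36e-05). Fbxo31, an F-box protein that targets cyclin D1, fell in 1057 (-0.29, adjusted p = 1.40e-05), 1064 (-0.80, adjusted p = 0.0366) and 1014-Grpr (-0.32, adjusted p = 0.00774).

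Of the targets of p53, among which Cdkn1a is the best known, 12 of 19 tested passed in 1057 (9 lower, 3 higher, median -0.145), beside 52.6% of all genes. Of 17 in 1064, 3 passed (1 lower, 2 higher), beside 6.38%. Of 15 in 1014-Grpr, 8 passed (2 lower, 6 higher, median 0.02), beside 29%. Plk2 rose from 54.4 ± 4.16 to 271 ± 69.8 CPM in 1014-Grpr, from 135 ± 38.7 to 442 ± 104 CPM in 1064 and from 377 ± 10.7 to 499 ± 2.37 CPM in 1057. Btg2, an antiproliferative early response gene, rose by 2.26 in 1014-Grpr, 1.42 in 1064 and 0.75 in 1057. Trp53inp1, a p53 cofactor, fell in the same lines by 1.20, 1.86 and 0.92 on the log2 scale, and Sesn1, a stress gene of the FOXO and p53 programmes, fell by 0.43 in 1014-Grpr and 0.60 in 1057.

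Of 16 quiescence and FOXO target genes, 15 passed in 1057 (7 lower, 8 higher), beside 52.6% of all genes, 4 in 1064 (1 lower, 3 higher), beside 6.38%, and 11 in 1014-Grpr (6 lower, 5 higher), beside 29%. Pik3ip1, an inhibitor of PI3K, fell from 137 ± 6.43 to 51.6 ± 0.0898 CPM in 1057 and from 29.6 ± 1.39 to 17.7 ± 1.68 CPM in 1014-Grpr. Bcl6, a transcriptional repressor, rose by 0.92 in 1057, 0.90 in 1064 and 1.19 in 1014-Grpr. None of these 6 lists had a gene that passed after GRP in 1181-Grpr, 1181-Ctrl or 1014-Ctrl, where 0% of all genes did, so this says nothing about the lists themselves. Of the 10 melanocyte markers, 7 passed in 1057 (4 lower, 3 higher), beside 52.6% of all genes. In 1014-Grpr 1 fell, where 12.7% of all genes did, and none passed in 1064 with edgeR, beside 6.38%.

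The genes whose pattern was most like that of a member were found over the 24 means of line and treatment, on log2 CPM with each line's mean taken off, which share their libraries and so describe and do not test. Myc was closest to Snhg17 (Pearson's r = 0.98), a host gene of small nucleolar RNAs, Pprc1 (0.98), a PGC-1-related coactivator, and Mak16 (0.98), a ribosome assembly factor. Cdkn1a was closest to Riok3 (0.98), Pgm2 (0.98) and Ybx3 (0.98). Ccnd1 had less close neighbours, Tmem201 (0.90), Pkib (0.90) and Kat2a (0.88). Between members, Myc and Cdkn1a were the pair with r = 0.96. These means include the 2 doubted libraries, and the correlations were not taken without them. The mean of 1014-Ctrl under mock was 63.0 CPM for Myc with the doubted library and 52.5 CPM without it. For Cdkn1a it was 133 and 90.0 CPM.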

How the data were processed

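Polyadenylated RNA of 72 libraries (6 lines, 4 treatments, 3 replicates) was sequenced by the authors as stranded paired ends and aligned to mm10 (GRCm38.p5) with STAR. The submitters' processing notes also name FastQC 0.11.5. The deposited counts are whole reads per gene, not normalised, and the deposited TPM values are the authors' counts scaled for transcript length and library size, written with decimal commas for 1057. The strand setting of the counting is not given in the sources used here. Of 50600 gene identifiers, 50376 (99.56%) had a symbol.

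Counts were tested with the quasi-likelihood test of edgeR 4.0.16 in R 4.3.3 after its filter on low counts and TMM scaling, in 1 fit per line (13730 to 14506 genes), per pair of lines of 1 parent, or over all libraries (16596 genes), with Benjamini-Hochberg adjustment and a threshold of 0.05. Standard errors are the log2 fold change over the root of its F value, and 95% intervals use the degrees of freedom of that test. The code was tested on simulated data. Alternatives were DESeq2 1.42.0, its size factors, no filter, a fold limit, limma 3.58.1 on log2(TPM + 1) and log2(TPM + 0.1), the replicate block, each replicate or the 2 doubted libraries left out, and 1 fit of all libraries. Figures were drawn with matplotlib 3.10.9.

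The members and lists were chosen with earlier results of these data known. Named genes were the 10 members, up to 4 per list with the smallest adjusted p of the mean GRP effect over 4 receptor lines, and the 3 genes most correlated with Myc, Ccnd1 and Cdkn1a. Differences between receptor lines and the average without 1181-Grpr were added after seeing the data. Intervals cover the spread between libraries, and the floor of 3 counts covers counting error only. No 2 replicates agreed within sampling noise (lowest chi-square per degree of freedom 2.556).

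Same-numbered replicates deviated together: the lowest correlation of their deviations between mock and GRP was 0.118 for 1014-Ctrl, 0.434 for 1014-Grpr, 0.497 for 1181-Grpr, 0.583 for 1064 and 0.750 for 1181-Ctrl, whose numbers were therefore taken to pair, and 0.00758 for 1057, whose numbers were not. The pairing rests on these correlations between mock and GRP, since the labels give numbers only. It did not hold for every pair of treatments. Between mock and GRP+RC, replicate 2 had -0.0148 in 1181-Grpr and 0.0766 in 1014-Ctrl, and each of these pairs includes a doubted library. Between GRP and GRP+RC, replicate 2 of 1181-Grpr had 0.00197.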

Additional observations from a re-analysis of the deposited data

Results flagged for a closer look

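The results listed here are differences in the effect of GRP between lines that passed a test of the difference itself. With the Grpr plasmid minus without it in the 1014 lines, Cdkn1a differed by 2.84 ± 0.388 (SE, log2 scale; adjusted p = 5.62e-05, edgeR) and Myc by 1.24 ± 0.206 (adjusted p = 4.55e-04). Without the 2 doubted libraries these were 2.29 ± 0.267 and 0.98 ± 0.148. For the average of the 4 receptor lines minus that of the 2 control lines, the differences were 1.25 ± 0.246 for Cdkn1a (adjusted p = 4.58e-04) and 0.54 ± 0.171 for Myc (adjusted p = 0.0354). Without the doubted libraries that of Cdkn1a was 0.97 ± 0.186 (adjusted p = 3.10e-04), and that of Myc, at 0.41, no longer passed (adjusted p = 0.0635).

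Among the receptor lines, the effect in 1057 minus that in 1014-Grpr was -1.57 ± 0.150 for Cdkn1a (adjusted p = 1.01e-07), -0.83 ± 0.082 for Ccnd3 (adjusted p = 1.55e-07), -0.74 ± 0.117 for Myc (adjusted p = 7.79e-05) and -0.81 ± 0.216 for Cdkn2b (adjusted p = 0.0110). For Ccnd3, 1057 minus 1181-Grpr was -0.57 ± 0.112 (adjusted p = 0.00242). For Cdkn1a, 1064 minus 1014-Grpr was -1.23 ± 0.245 (adjusted p = 0.0379) and 1181-Grpr minus 1014-Grpr was -2.27 ± 0.452 (adjusted p = 0.00682). These comparisons between receptor lines were chosen after seeing the data, and no group of 3 libraries was searched for outlying values.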

How the results depend on the processing

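Of the single-gene results under all alternatives, 1088 kept their call, 47 came to pass, 15 no longer passed and 0 were counted as reversed. Some that did not pass changed sign while keeping their call. Cdkn2a in 1057 after GRP, for example, was at -0.07 and ran from -0.27 to 0.08 over the alternatives. Of the counts of members passing, 167 stayed within 1.5 times the reported count and 29 did not, and the cause was not tested. After GRP the count of 5 in 1057 became 0 with a log2 fold change beyond 1 required and 1 in 1 fit of 72 libraries. The count of 1 in 1064 became 0 with the fold limit, 6 with the replicate block, 2 with DESeq2 and 0 to 1 with a replicate left out. The count of 5 in 1014-Grpr became 2 with the fold limit, 3 in 1 fit and 2 to 6 with a replicate left out. For GRP+RC against GRP, the 5 in 1057 became 0 with the fold limit and 0 in 1 fit, the 0 in 1064 became 3 with the block and 1 with DESeq2, and the 3 in 1014-Grpr became 1 with the fold limit, 7 with the block, 1 in 1 fit and 1 to 2 with a replicate left out.

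After RC alone the 5 over all lines became 0 with the fold limit and 0 in 1 fit, and for GRP+RC against mock the 6 became 0 with the fold limit, 12 with the block and 0 in 1 fit. For the 1014 lines with and without Grpr the 2 became 5 without the 2 doubted libraries and 7 with the block as well. For the average of 4 receptor lines the 2 became 0 with the fold limit, 5 with the block, 6 with the block and without the doubted libraries, and 6 with the block and without 1181-Grpr, the last added after seeing the data. The block was not run for lines compared under mock, since it is nested in the line and leaves no spread between replicates for that comparison. The 98 over all pairs ran from 76 to 96 with a replicate left out. The block was fitted in 1057 too, whose numbers do not pair, and there it left 5 after GRP. Cdkn1c, at or near the floor of 3 counts outside 1057, could not be tested in those lines alone.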
